A study of Homo sapiens with 6 samples.

Results

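The amino acid transporter families SLC1, SLC3, SLC6, SLC7, SLC36, SLC38 and SLC43 were compared between pLB and pLUM cells. Members were all non-control probes whose gene name on the array was one of these family prefixes followed by A and a number, and antisense or opposite-strand names ending in OS were left out. This gave 59 genes with 83 probes, of 25940 genes with 34127 probes on the array. Of these, 40 genes with 54 probes gave a signal well above background on 3 or more of the 6 arrays and were tested, or 67.8% of the members against 68.1% of all genes.

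Both lines were derived from T47Dco human breast cancer cells, a subline of T47D, grown as tumors in mice, and each comes from a single tumor that was sorted repeatedly. The pLUM line (3 samples) came from a tumor grown with estradiol (E). Its cells were cultured about 2 months in E, sorted as CLD3+CD49f-, cultured about 2 months more and sorted again, and received 1 nM E for 72 h before RNA was collected. The pLB line (3 samples) came from a tumor grown with E plus progesterone. Its cells were cultured about 2.5 months under estrogen withdrawn (EWD) conditions, sorted as CLD3-CD49f+, cultured about 2 months more and sorted again, and were kept without E. Line and E therefore coincided on all arrays and cannot be told apart. The samples are separate sorts of the same line, so that p-values measure the spread between sorts only. Before RNA extraction the cells were fixed, stained for CK5 and sorted, and the CK5 fraction that was hybridized is not given in the sources used here.

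RNA was measured on Agilent arrays with a single dye. Between 21285 and 22775 probes were well above background on each array, and no gene spot was saturated. Transcripts of 9 of 9 pLB markers were higher in pLB and 6 of 6 pLUM markers were lower, including the sort markers ITGA6 (CD49f), at 21.4-fold higher, and CLDN3, at 104-fold lower. CD44, which the study also lists for pLB and which is kept here with the transporter partners, was not called. PGR, the gene of the progesterone receptor, was at least 67.5-fold lower in pLB. Of 10 markers of stromal, endothelial and immune cells, 6 were not tested for lack of signal, including PDGFRA, PDGFRB, DCN, LUM and PECAM1, which were well above background on no array. The other 4 gave signal. CD14, CDH5 and PTPRC, of monocytes, endothelium and leukocytes, were well above background on all 6 arrays and not called, at log2 fold changes of 0.56, 0.51 and -0.47. VWF, an endothelial marker, was called at least 1.80-fold higher in pLB. The part of such cells in the results was not tested. The 3 pLUM arrays and pLB replicate 1 lay on slide 1, whereas pLB replicates 2 and 3 lay on slide 2. With fewer cells of a type and less RNA per cell the signal falls alike, and these cannot be told apart in bulk RNA.

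Amino acids cross membranes through transporter proteins, many of which trade a substrate on one side for another on the opposite side. The SLC7 light chains, among them SLC7A5 and SLC7A11, reach the cell surface only as pairs with the SLC3A2 or SLC3A1 heavy chain. Cationic transporters of SLC7 carry arginine and lysine without such a partner. SLC1 holds the glutamate transporters and the neutral exchanger SLC1A5, SLC38 holds sodium-coupled carriers of glutamine and alanine, SLC36 holds proton-coupled carriers, and SLC43 holds facilitated carriers of large neutral amino acids. SLC6 is mixed, since it carries glycine, GABA, taurine, creatine, proline and also the monoamines. Tumor cells of several kinds rely on SLC7A5 and SLC1A5 for leucine and glutamine.

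Signals are given on the log2 scale with the array's 75th percentile set to 0, and differences as log2 fold changes of pLB over pLUM with the standard error of the limma fit. Adjusted p-values are from limma over all 17670 genes tested, each represented by its tested probe with the highest mean signal. A gene was called where the difference reached 2-fold with an adjusted p under 0.05. Where none of a line's arrays was well above background for a gene, the fold is given as a lower bound ("at least"), taken against the higher of the gene's own signal and the lowest signal well above background on each array. Such a gene passed the filter only through the 3 arrays of the other line. Its direction is thus partly fixed by the filter, and its adjusted p is no separate support for it. The position of each probe is on hg19 as the files give it, and whether it lies in a coding exon or a UTR was not annotated here.

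Of the 40 tested transporter genes, 14 were called higher in pLB and 4 lower. Among these calls, 3 of the higher and 1 of the lower were well above background in 1 line only. Over all genes tested, 22.7% were called higher and 23% lower, and the shares among the transporters were 35% and 10%. By probes, 18 of 54 were higher and 4 lower, or 33.3% and 7.41%, against 21.9% and 23.7% of all probes. The median log2 fold change of the transporters was 0.72, also with the 4 genes known only by a bound set at it, against 0.04 over all genes, while their median absolute change was 0.99 against 0.92. The calls leaned toward pLB, while the sizes of change lay near those of other genes. The signals of the 3 pLB and 3 pLUM arrays did not overlap for 33 of 40 transporters, or 82.5%, against 69.1% of all genes. The share of higher calls among the called transporters depends on the setting. It was lowest, at 65%, with no filter on dim probes, where all 59 members were tested. With probes well above background on all 6 arrays, 29 members were tested. There 76.9% of the transporter calls were higher, against 50.1% of the calls among all genes. Median scaling gave 76.5% and quantile normalization 83.3%. When arrays were scaled on spike-in controls, 20 transporters were called higher and 2 lower, so that 90.9% of the calls were higher in place of 77.8%. The same scaling raised the median of all genes to 0.27, and the share of higher calls among all genes from 49.7% to 59.3%.

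By family, SLC7 had 4 genes higher and 2 lower of 7 tested, SLC1 had 3 higher and 1 lower of 6, and SLC43 had 2 higher of 3. SLC38 had 2 higher of 9, SLC6 had 2 higher of 11, and SLC36 had 1 higher and 1 lower of 2. Neither of the 2 SLC3 heavy chains was called. The shares among all genes tested were 22.7% higher and 23% lower. The median log2 fold change was 1.66 in SLC43, 1.38 in SLC7, 1.01 in SLC1, 0.59 in SLC6, 0.27 in SLC38, 0.02 in SLC36 and -0.27 in SLC3.

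**Figure D1:**
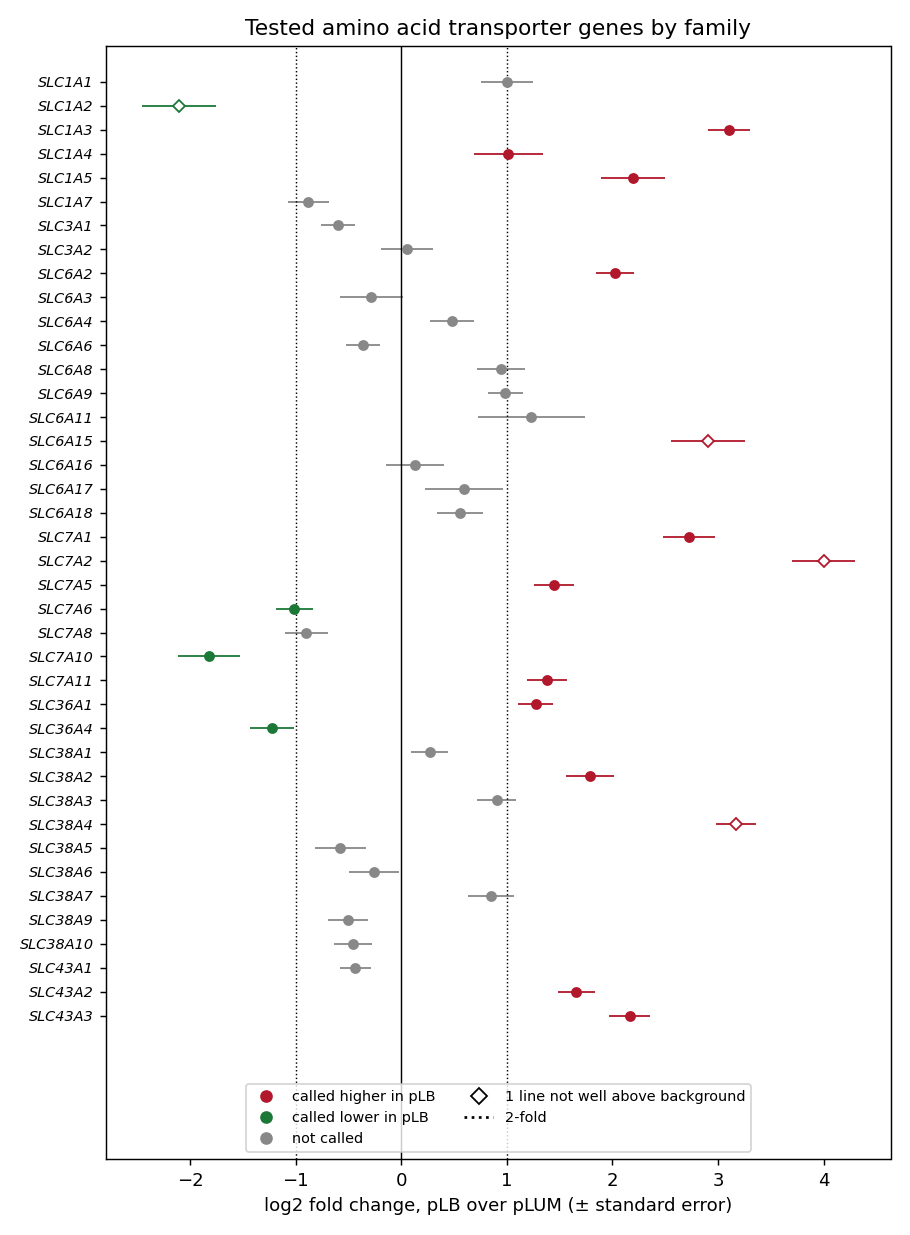
Log2 fold change of pLB over pLUM for the 40 tested amino acid transporter genes, ordered by family, with the standard error of the limma fit. Filled circles are measured in both lines, open diamonds mark genes with no array of 1 line well above background, and dotted lines mark 2-fold. The 14 genes called higher lie right of the 2-fold line and the 4 called lower lie left of it.

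The heavy chains were measured with these levels. SLC3A2 (CD98, probe at chr11:62652689-62652748), the partner of most light chains, had log2 signals of 1.92, 2.08 and 2.33 in pLUM and 2.34, 2.45 and 1.69 in pLB. The lines overlapped, and the log2 fold change was 0.05 ± 0.24 (SE, n = 3 per line, limma adjusted p = 0.86). Its sign turned with the setting, being -0.07 with quantile normalization. SLC3A1, the heavy chain of the cystine and dibasic amino acid carrier of kidney, was dim in both lines. Its log2 signals were -4.43, -4.59 and -4.66 in pLUM and -5.19, -5.26 and -5.03 in pLB. The lines did not overlap, but the log2 fold change of -0.60 ± 0.16 was below 2-fold and was not called (limma adjusted p = 0.014), and 3 further probes for this gene were not above background on any array.

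Light chains that pair with SLC3A2 moved in both directions. SLC7A5 (LAT1, probe at chr16:87863907-87863966), which imports leucine and other large neutral amino acids, had log2 signals of 3.05, 3.09 and 3.52 in pLUM and 4.57, 4.79 and 4.64 in pLB. Every pLB array lay above every pLUM array, and SLC7A5 rose 2.73-fold (log2 fold change 1.45 ± 0.19, limma adjusted p = 4.2e-04). SLC7A11 (xCT, probe at chr4:139085433-139085492), which imports cystine in exchange for glutamate, had log2 signals of 0.37, 0.08 and -0.08 in pLUM and 1.43, 1.71 and 1.36 in pLB. It rose 2.60-fold with no overlap (1.38 ± 0.19, limma adjusted p = 5.9e-04).

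SLC7A10 (Asc-1, probe at chr19:33699710-33699769), a light chain for small neutral amino acids such as serine and alanine, went the other way. Its log2 signals were -0.69, -0.65 and -0.48 in pLUM and -2.61, -2.89 and -1.78 in pLB. It fell 3.53-fold without overlap (log2 fold change -1.82 ± 0.29, limma adjusted p = 0.0012), and pLB replicate 3 was the pLB array nearest to pLUM. SLC7A6 (y+LAT2), an exchanger of arginine for glutamine, fell 2.02-fold, at the edge of the 2-fold threshold, with a limma adjusted p of 0.0017. Its call was lost with normexp background correction, quantile normalization, spike-in scaling and without pLUM replicate 1, pLUM replicate 2 or pLB replicate 1, with log2 fold changes between -1.23 and -0.74 over all settings. The SLC7A6 probe (chr16:68334665-68334724, plus strand) lies beside a probe for SLC7A6OS on the minus strand. SLC7A8 (LAT2) was not called, at a log2 fold change of -0.90 (limma adjusted p = 0.0063). So of the 5 tested light chains, 2 were higher in pLB, 2 lower and 1 was not called, beside an SLC3A2 signal that overlapped between the lines. SLC7A7 and SLC7A9, further light chains, were not tested for lack of signal.

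Both tested cationic transporters were higher in pLB. SLC7A1 (CAT1, probe at chr13:30084093-30084152), a widely expressed importer of arginine and lysine, had log2 signals of -1.22, -1.18 and -0.60 in pLUM and 1.91, 1.91 and 1.37 in pLB. It rose 6.63-fold with no overlap (log2 fold change 2.73 ± 0.25, limma adjusted p = 6.8e-05). SLC7A2 (CAT2), which carries the same substrates, stood well above background on 0 of 3 pLUM arrays, with log2 signals of -6.96, -7.75 and -6.61, and on 3 of 3 pLB arrays, at -3.10, -2.97 and -3.26. The rise in pLB was at least 4.82-fold, with a limma adjusted p of 2.6e-05 for the fitted difference. With normexp background correction the call for SLC7A2 was lost, at a log2 fold change of 0.52. SLC7A3, a further cationic transporter, was well above background on 1 array only and was not tested.

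Within SLC1, glutamate transporters moved in opposite directions. SLC1A3 (EAAT1, GLAST, probe at chr5:36688204-36688263), a sodium-dependent glutamate and aspartate importer, had log2 signals of -2.58, -2.82 and -2.83 in pLUM and 0.12, 0.30 and 0.68 in pLB. It rose 8.62-fold with no overlap (log2 fold change 3.11 ± 0.20, limma adjusted p = 1.3e-05). SLC1A2 (EAAT2, GLT-1), best known from astrocytes, stood well above background on 3 of 3 pLUM arrays, at -4.25, -4.25 and -4.89, and on 0 of 3 pLB arrays, at -6.09, -7.30 and -6.33. It was at least 1.77-fold lower in pLB, with a limma adjusted p of 0.0014 for the fitted difference, and its call was lost with normexp correction (-0.89) and with a floor on dim signals (-0.83). SLC1A1 (EAAT3) lay just inside the 2-fold threshold at a log2 fold change of 1.00 ± 0.25, 1.997-fold, and was not called (limma adjusted p = 0.0094). SLC1A7 (EAAT5) was not called at -0.88.

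The neutral exchangers of SLC1 were both called higher. SLC1A5 (ASCT2, probe at chr19:47278899-47278958), a glutamine exchanger, had log2 signals of -3.14, -2.95 and -2.36 in pLUM and -0.35, -0.35 and -1.17 in pLB. It rose 4.57-fold with no overlap (log2 fold change 2.19 ± 0.30, limma adjusted p = 5.8e-04), although pLB replicate 3 and pLUM replicate 3 lay nearer to each other than the rest. SLC1A4 (ASCT1), a serine and alanine exchanger, was 2.02-fold higher (1.01 ± 0.33, limma adjusted p = 0.029). This call did not hold: it was lost in 9 settings, among them median scaling, slide as a block and without pLUM replicate 1, pLUM replicate 2, pLB replicate 1 or pLB replicate 2, and the difference turned to -0.14 with normexp correction.

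**Figure D2:**
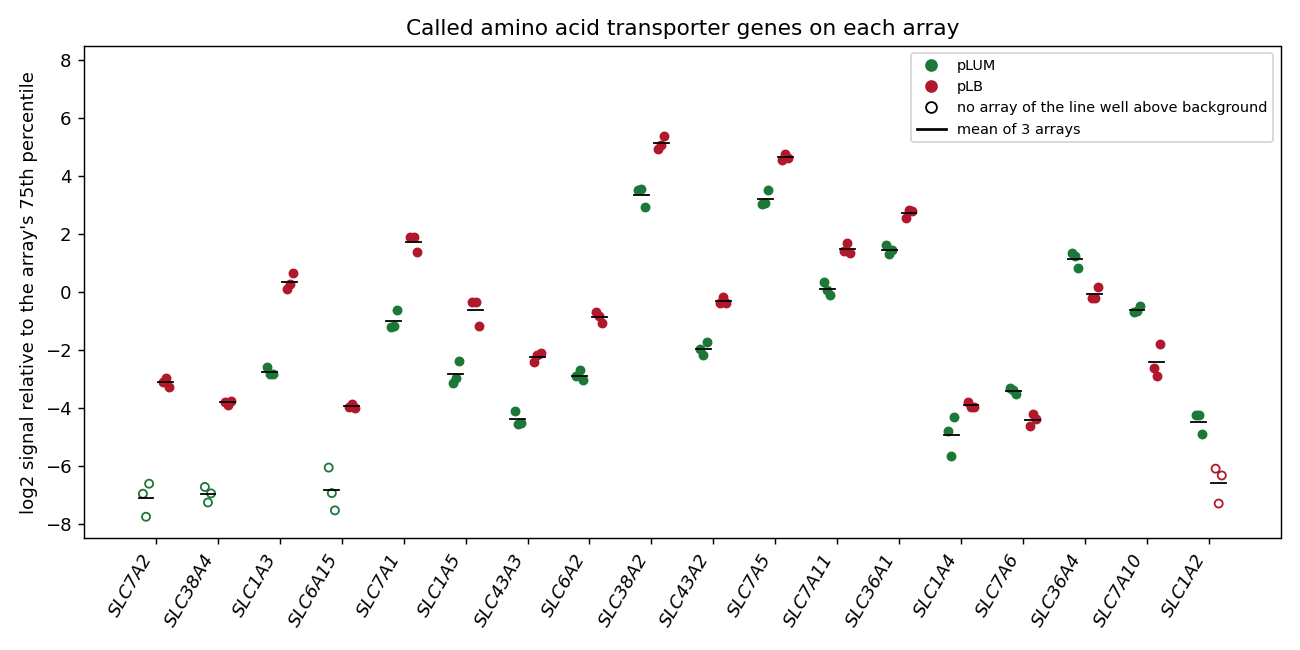
Log2 signal relative to the array's 75th percentile on each of the 3 pLUM and 3 pLB arrays for the 18 transporter genes called, ordered from highest to lowest fold change, with bars at the mean of 3 arrays and open circles where no array of a line was well above background. The arrays of the lines do not overlap for any gene shown. Heights of different genes come from different probes and are not comparable.

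Of the 9 tested SLC38 carriers, 2 were called higher and 0 lower, where 22.7% of all genes were called higher and 23% lower. SLC38A2 (SNAT2), an importer of glutamine and small neutral amino acids that is known to be induced by amino acid shortage, had log2 signals of 3.54, 3.56 and 2.95 in pLUM and 4.95, 5.07 and 5.38 in pLB. It rose 3.45-fold with no overlap (log2 fold change 1.79 ± 0.23, limma adjusted p = 3.9e-04), and a second probe gave 1.60. SLC38A4 (SNAT4), a carrier best known from liver and placenta, stood well above background on 0 of 3 pLUM arrays, at -6.72, -7.26 and -6.95, and on 3 of 3 pLB arrays, at -3.78, -3.88 and -3.76. The rise was at least 2.97-fold (limma adjusted p = 8.8e-06 for the fitted difference), and its second probe gave at least 2.80-fold. With normexp correction the call for SLC38A4 was lost, at a log2 fold change of 0.17. SLC38A1 (SNAT1), which carries similar substrates to SLC38A2, overlapped between the lines at 0.27 ± 0.17 (limma adjusted p = 0.21). SLC38A3, SLC38A7, SLC38A9, SLC38A5, SLC38A6 and SLC38A10 had log2 fold changes of 0.90, 0.85, -0.51, -0.58, -0.26 and -0.46. Of these, SLC38A9 encodes an arginine sensor on the lysosome. The probes of SLC38A1 (chr12:46582007-46582066), SLC38A2 (chr12:46754625-46754684) and SLC38A4 (chr12:47159077-47159136) lie near each other on the same strand, the first not called and the others higher.

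The SLC36 carriers split. SLC36A1 (PAT1), which exports small amino acids from lysosomes with protons, rose 2.42-fold in pLB (log2 fold change 1.27 ± 0.17, limma adjusted p = 4.5e-04). SLC36A4 (PAT4) fell 2.34-fold (-1.22 ± 0.21, limma adjusted p = 0.0017), its second probe gave -0.78 and was not called, and its call was lost with spike-in scaling, at -0.99. In SLC43, SLC43A2 (LAT4), a facilitated carrier of leucine and phenylalanine, had log2 signals of -1.95, -2.17 and -1.74 in pLUM and -0.36, -0.16 and -0.36 in pLB. It rose 3.16-fold with no overlap (1.66 ± 0.18, limma adjusted p = 1.6e-04). SLC43A3, which despite its family carries purine nucleobases, had log2 signals of -4.10, -4.56 and -4.52 in pLUM and -2.42, -2.16 and -2.10 in pLB. It rose 4.49-fold (2.17 ± 0.20, limma adjusted p = 6.7e-05), but with normexp correction it stood at 0.71 and was not called. SLC43A1 (LAT3) was not called, at -0.44 (limma adjusted p = 0.035).

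In SLC6, 2 of 11 tested genes were called. SLC6A15 (B0AT2), a sodium-coupled carrier of proline and branched-chain amino acids known from neurons, stood well above background on 0 of 3 pLUM arrays, at log2 signals of -6.06, -6.94 and -7.53, and on 3 of 3 pLB arrays, at -3.96, -3.86 and -4.00. The rise was at least 2.71-fold (limma adjusted p = 3e-04 for the fitted difference), and the call was lost with normexp correction, at 0.08. The other probes for SLC6A15 were not tested for lack of signal. SLC6A9 (GLYT1), the glycine transporter, and SLC6A8, the creatine transporter, lay just inside the 2-fold threshold at 0.98 and 0.94 and were not called, although their adjusted p-values were 0.0015 and 0.0083. The other tested probes of SLC6A8 gave 0.16 and -0.15, and the mean over its probes was 0.32. SLC6A11, a GABA transporter, passed 2-fold at 1.23 but not the test (limma adjusted p = 0.068). The taurine transporter SLC6A6, the dopamine transporter SLC6A3 and the serotonin transporter SLC6A4 stood at -0.37, -0.29 and 0.48 and were not called. SLC6A16, SLC6A17 and SLC6A18 were not called, at 0.13, 0.59 and 0.56.

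SLC6A2 encodes the noradrenaline transporter, and its probes differed most. The probe that represents the gene had log2 signals of -2.91, -2.69 and -3.03 in pLUM and -0.68, -0.83 and -1.06 in pLB, a rise of 4.07-fold (log2 fold change 2.02 ± 0.18, limma adjusted p = 6.6e-05). A further probe, singled out after its values were seen, lies 3′ of it. Its signal stood well above background on 0 of 3 pLUM arrays, at -7.55, -7.72 and -7.74, and reached 1.90, 1.79 and 1.69 in pLB. The rise was at least 144-fold (limma adjusted p = 1.6e-07 over all probes), a difference of 9.46 in the fit, 7.17 with a floor on dim signals and 4.71 with normexp correction. Both probes were higher in pLB, by amounts that differed (limma diffSplice adjusted p = 1.6e-09).

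Several probes were tested for 11 transporters, and for 3 of these the probes differed in fold change, against 40.8% of the 4286 genes with several tested probes. Besides SLC6A2 these were SLC38A10 and SLC6A9. SLC38A10, a carrier of glutamine and other neutral amino acids, had 1 probe that was not called (-0.46, limma adjusted p = 0.062), and a second probe for another transcript that rose 4.70-fold. The second probe had log2 signals of -3.07, -3.30 and -3.24 in pLUM and -0.84, -0.94 and -1.13 in pLB (2.23 ± 0.16, limma adjusted p = 2.7e-05), with no overlap. The remaining probe stood well above background in pLUM alone, with lines that overlapped, and was not called. The probes of SLC38A10 differed with a diffSplice adjusted p of 0.0016. For SLC6A9 the representative probe gave 0.98, and a dim probe 5′ of it gave -0.30 with overlap (diffSplice adjusted p = 0.018). When probes had to be well above background on all 6 arrays, 1 transporter had probes that differed. The last 30 bases of both SLC6A2 probes and of the representative and second SLC38A10 probes, as read from the array design, are shown because the probes, not the gene names, carry the difference. Capitals mark the letters AATAAA, the polyadenylation signal hexamer.

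SLC6A2 representative probe, chr16:55734158-55734217, plus strand, 2.02: gttcctcagcacgcagggctctctttggga

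SLC6A2 further probe, chr16:55737624-55737683, plus strand, at least 7.17: gcgggatcttgggaaaaAATAAAgaagccg

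SLC38A10 representative probe, chr17:79218836-79218895, minus strand, -0.46: gactgtttatcgatgcttcccacagtgtgg

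SLC38A10 second probe, chr17:79225065-79225124, minus strand, 2.23: ctgccttactcccctttaaacacctgcggc

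**Figure D3:**
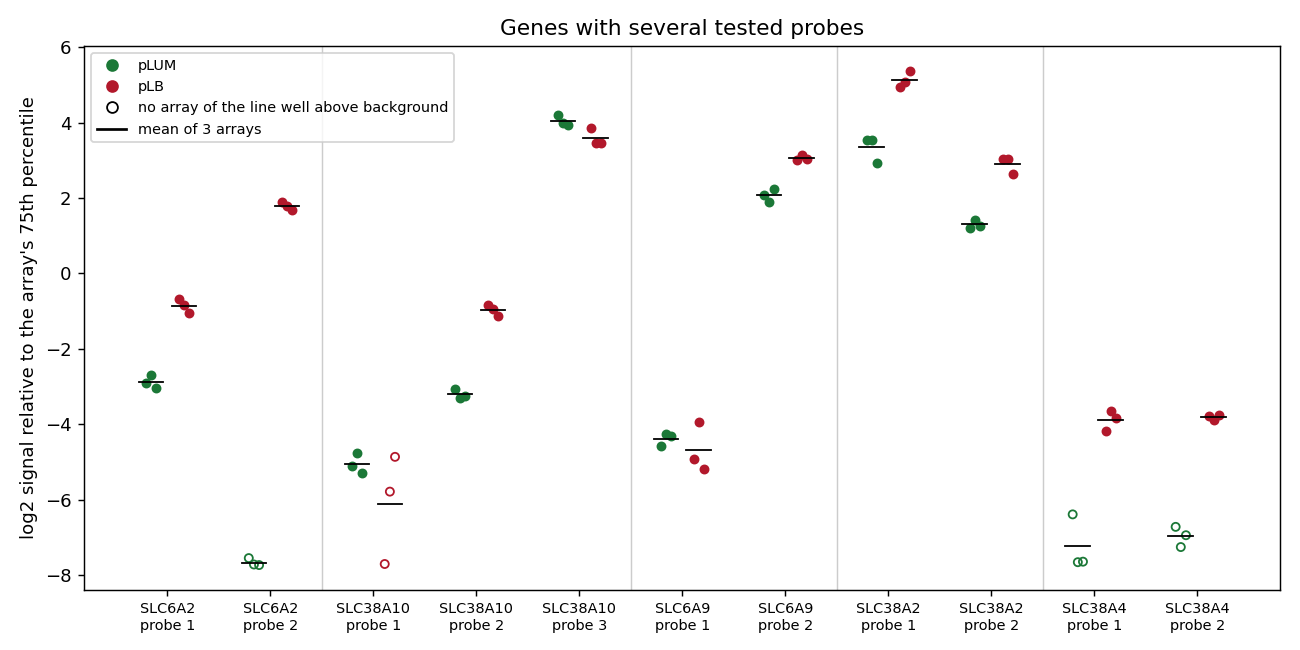
Log2 signal relative to the array's 75th percentile of every tested probe of SLC6A2, SLC38A10, SLC6A9, SLC38A2 and SLC38A4 on each array, with probes of a gene ordered 5′ to 3′, bars at the mean of 3 arrays and open circles where no array of a line was well above background. The SLC38A2 probes rose by 1.79 and 1.60 and both SLC38A4 probes are known only by bounds, whereas the gap between the lines differed between the probes of SLC6A2, of SLC38A10 and of SLC6A9.

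With slide as a block, pLB replicate 1 alone is set against the pLUM arrays, which share its slide. Every transporter called kept its direction and its call in that fit except SLC1A4, which was not called at 1.14 (limma adjusted p = 0.083). For example, SLC1A3 at 2.86, SLC7A1 at 2.91, SLC1A5 at 2.47, SLC38A2 at 1.60, SLC7A5 at 1.35, SLC7A11 at 1.31 and SLC7A10 at -2.00. The 10 transporters that kept their call in every alternative that gave a value were SLC1A3, SLC1A5, SLC7A1, SLC7A5, SLC7A11, SLC38A2, SLC36A1, SLC43A2, SLC6A2 and, lower in pLB, SLC7A10.

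The members that were not tested numbered 19, of which 16 were well above background on no array. They include SLC6A14, SLC6A19 and SLC6A20, carriers known from epithelia, the betaine carrier SLC6A12, the glycine transporter SLC6A5, SLC6A7, SLC1A6, SLC7A4, SLC7A7, SLC7A13, SLC7A14, SLC36A2, SLC36A3, SLC38A8 and SLC38A11. SLC6A13, SLC7A3 and SLC7A9 were well above background on 1 array.

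When amino acids run short, the kinase GCN2 raises translation of the transcription factor ATF4, which induces transporters, synthetic enzymes and aminoacyl-tRNA synthetases through promoter elements with a TGATGNAAN core. Of a list of 29 genes of this amino acid response, all tested, 11 were higher in pLB and 1 lower, where 22.7% of all genes were called higher and 23% lower. Its genes had a median difference of 0.74 on the log2 scale, against 0.04 over all genes. CHAC1, a glutathione-degrading enzyme, had log2 signals of -0.57, -0.71 and -0.61 in pLUM and 1.31, 1.58 and 1.53 in pLB, and rose 4.29-fold (2.10 ± 0.16, limma adjusted p = 2.9e-05). PSAT1, of serine synthesis, rose 3.44-fold, WARS, the tryptophanyl-tRNA synthetase, 3.30-fold, and DDIT4, an inhibitor of mTORC1, 3.14-fold. CEBPG, a partner of ATF4, fell 2.65-fold. ATF4 itself, at -0.12 (limma adjusted p = 0.65), and its targets ASNS, at 0.08, and DDIT3, at 0.08, were not called.

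Promoters of 44 of the 59 members were found by symbol in the RefSeq table for GRCh38.p14, as 300 bases from 250 before to 50 after the gene's start. Both strands were searched. The core TGATGNAAN was present in 4 of 44 members and in 3.61% of all 35116 promoters. Among members called higher it was in 2 of 9, SLC1A3 and SLC7A1, among those called lower in 0 of 3, and among those not called in 2 of 18, SLC38A1 and SLC3A2. The antioxidant response element core TGANNNNGC was in 20 of 44 members and 41.8% of all promoters. Both cores begin with TGA, but their letters exclude a match of both at the same base of a strand. The palindromic estrogen response element was in 0 of 44 members and 0.057% of all promoters. A match is a run of letters and not a site of binding. The promoters of the called genes with the TGATGNAAN core are shown on their own strand, with the match in capitals up to its last fixed letter. It begins 220 bases before the start in SLC1A3 and 7 bases after it in SLC7A1.

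SLC1A3 promoter, GRCh38.p14 chr5:36596338-36596637, plus strand: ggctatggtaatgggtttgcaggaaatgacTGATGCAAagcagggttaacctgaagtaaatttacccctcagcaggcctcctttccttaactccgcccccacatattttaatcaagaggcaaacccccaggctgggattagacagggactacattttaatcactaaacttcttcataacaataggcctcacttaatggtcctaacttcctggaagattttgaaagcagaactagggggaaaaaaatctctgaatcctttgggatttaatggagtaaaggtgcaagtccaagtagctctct

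SLC7A1 promoter, GRCh38.p14 chr13:29595639-29595938, minus strand: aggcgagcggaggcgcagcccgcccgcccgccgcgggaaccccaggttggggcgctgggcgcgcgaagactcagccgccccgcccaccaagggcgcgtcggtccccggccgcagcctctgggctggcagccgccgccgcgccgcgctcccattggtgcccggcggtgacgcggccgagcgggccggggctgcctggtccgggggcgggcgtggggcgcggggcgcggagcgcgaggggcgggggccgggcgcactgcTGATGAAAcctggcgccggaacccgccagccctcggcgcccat

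Other carriers of amino acids and peptides moved in both directions, with 2 higher and 1 lower of 12 tested. The shares over all genes were 22.7% higher and 23% lower. SLC16A10 (TAT1), which carries aromatic amino acids, had log2 signals of -4.88, -4.69 and -4.68 in pLUM and -1.88, -2.21 and -2.67 in pLB, and rose 5.63-fold (2.49 ± 0.23, limma adjusted p = 7.3e-05). SLC25A15, the mitochondrial ornithine carrier, rose 3.31-fold. SLC25A18, a mitochondrial glutamate carrier, fell by at least 6.64-fold, with 0 of 3 pLB arrays well above background.

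Of 30 tested enzymes of amino acid metabolism, 6 were higher in pLB and 9 lower, with a median log2 fold change of -0.35. Over all genes tested, 22.7% were called higher and 23% lower. GABA enzymes stood at both ends. GAD1, which makes GABA from glutamate, was 32.8-fold higher in pLB, with 1 of 3 pLUM arrays well above background. ABAT, which breaks GABA down, had log2 signals of 2.51, 2.41 and 2.42 in pLUM and -1.82, -2.13 and -1.98 in pLB, and fell 21.5-fold (-4.42 ± 0.16, limma adjusted p = 1.1e-06). AMT, of the glycine cleavage system, fell 10.9-fold. The glutamate-aspartate transaminases GOT1 and GOT2 rose 2.84-fold and 2.46-fold.

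Genes by which amino acids are sensed at the lysosome were mostly not called, with 6 higher and 2 lower of 26 tested and a median of 0.22. This share of higher genes lay near the 22.7% of all genes called higher, whereas the share of lower genes was below the 23% of all genes called lower. The Rag GTPases that bring mTORC1 to the lysosome differed among themselves. RRAGD rose 3.28-fold and RRAGA 2.35-fold, while RRAGB fell at least 4.60-fold, with 0 of 3 pLB arrays well above background. SESN3, a member of the sestrins, rose at least 8.64-fold, with 0 of 3 pLUM arrays well above background. NPRL3, of the GATOR1 inhibitor of this pathway, rose 2.59-fold.

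Partner proteins of the transporters had 2 genes higher and 3 lower of 8 tested, where 22.7% of all genes were called higher and 23% lower. SGK1, a kinase that holds several carriers at the cell surface, had log2 signals of -4.07, -3.60 and -4.24 in pLUM and 0.28, 0.16 and -0.06 in pLB, and rose 17.1-fold (4.10 ± 0.22, limma adjusted p = 5.6e-06). BSG, a chaperone of lactate carriers, rose 6.90-fold. PDZK1, a scaffold of membrane carriers that is known to be induced by estrogen, fell 13.4-fold, with 1 of 3 pLB arrays well above background. This fold too rests on signals near background, since PDZK1 stood at -7.72, -3.95 and -6.34 in pLB. TMEM27, a partner of SLC6 carriers, was at least 1.70-fold lower. CD44, which stabilizes SLC7A11 at the membrane in some tumors, was not called at 0.61 (limma adjusted p = 0.022).

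**Figure D4:**
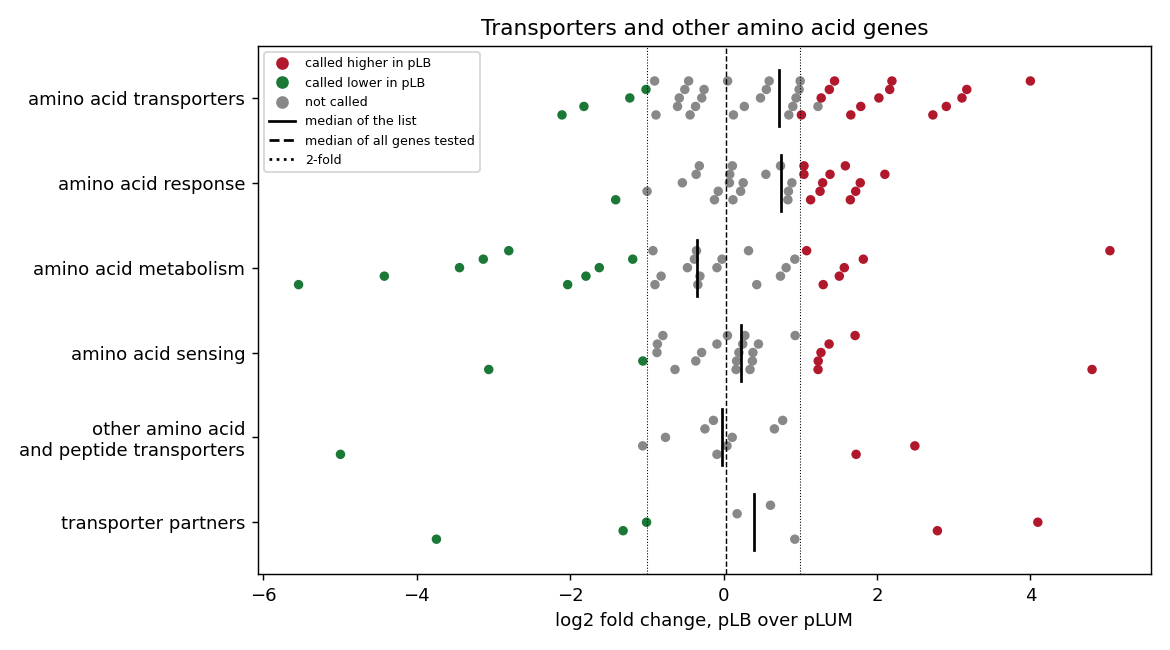
Log2 fold change of pLB over pLUM for each tested transporter and each tested gene of 5 further amino acid lists, colored by call, at the fitted value also where only a bound is known, with a bar at the median of each list, a dashed line at the median of all genes tested and dotted lines at 2-fold. Medians of the transporters and of the amino acid response genes stand at 0.72 and 0.74, and that of the metabolic enzymes at -0.35.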

How the data were processed

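Agilent arrays with 1 dye measured RNA from 3 sorts of each line, pLUM and pLB. The authors deposited for each array the spot intensity on a linear scale from Agilent Feature Extraction 10.10.1.1, already corrected for background within the array and not normalized between arrays, with flags for outliers, saturation and signals well above background. The number of arrays limits the precision.

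Intensities were put on the log2 scale, and each array's 75th percentile was subtracted. Controls and spots marked as outliers (296 to 387 per array) were dropped, spots of a probe were averaged, and probes with a signal well above background on 3 or more arrays were tested with limma 3.58.1 in R 4.3.3 (lmFit, eBayes, diffSplice, Benjamini-Hochberg). The fits were also tested on simulated data with 200 changes of 4-fold. The limma fit recovered 150 of them with 6 false calls, and diffSplice recovered 165 of 200 with 13 false calls. The simulation changed 200 of 23105 probes, whereas in the data 21.9% of probes were called higher and 23.7% lower. Its recovered shares therefore do not give the share recovered in the data. A gene that was not called may still differ. Gene names are those of the files. Transcripts of 76 of 83 member probes matched a RefSeq table for GRCh38.p14, all with the same symbol, and 2 further probes (TMEM104) that it names within SLC38 were not members.

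Members, lists and motifs were chosen with earlier results of these data known. Values per array are given for the 14 called members with the largest change and for SLC3A1, SLC3A2, SLC7A5, SLC7A11 and SLC1A5; from each list the 4 called genes with the largest change are named, save where a gene is not reported here, and a few others, chosen after their values were seen, for their roles. The samples were treated as unpaired. Whether replicate numbers pair samples could not be settled, since deviations from each line's own mean are constrained. Alternatives were other background corrections, scalings, filters, blocks, thresholds, tests and probe rules, and leaving out each array. Cells treated with E plus progesterone were not analysed here. Of the list genes, 6 were not found by name on the array.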

Additional observations from a re-analysis of the deposited data

How the results depend on the processing

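Of the 18 transporters called, 17 kept their direction in every alternative that gave a value, the exception being SLC1A4, and 10 kept their call. Of the 22 not called, 11 passed in at least 1 alternative and 9 changed sign in at least 1. With normexp background correction 10 transporter genes were higher and 2 lower (2 probes lower), the median of all genes moved to -0.21, and the sign turned for SLC1A4 (-0.14), SLC38A3 (-0.11), SLC6A11 (-0.29), SLC6A17 (-0.39), SLC6A18 (-0.31) and SLC6A4 (-0.25). With spike-in scaling 2 genes and 2 probes were lower. With no filter on dim probes 7 genes and 7 probes were lower, with slide as a block 7 probes, and with no fold threshold 9 genes and 10 probes. With the filter at all 6 arrays, 9 list genes were lower in place of 16, and 1 gene in place of 3 had probes that differed, with fewer genes tested. The sign also turned for SLC3A2 with quantile normalization (-0.07), SLC6A16 with slide as a block (-0.26), and, as the mean of all probes of a gene, SLC38A1 (-0.021) and SLC38A10 (0.24). Leaving out 1 array at a time, SLC3A2 ranged from -0.093 to 0.29 and SLC6A16 from -0.14 to 0.32, member genes higher from 14 to 17 and lower from 3 to 5. The normexp correction added an offset of 50 to every intensity. For example, SLC7A2 had intensities of 3.8, 2.6 and 5.8 on the pLUM arrays in the main setting, which adds no offset. The cause of the shifts between settings was not tested. Same-numbered arrays of the lines did not deviate together (correlations -0.27, -0.10 and -0.22). Deviations were taken from each line's own mean, which constrains them, so they cannot settle whether the numbers pair samples. A replicate block left 14 genes higher and 4 lower. The further probes of SLC6A2 and SLC38A10, chosen after seeing the data, kept their calls in every alternative that gave a value. For the dimmest genes the signal over background limits what can be said, and the fold is only a bound.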
